A study of Mus musculus with 6 samples.

Results

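Matrix metalloproteinases (MMPs) and tissue inhibitors of metalloproteinases (TIMPs) were examined by bulk RNA sequencing of dorsal skin from mice of the tight skin strain (TSK) and from wild-type (WT) mice. The 10 genes were taken by name: the proteinases Mmp2, Mmp3, Mmp9, Mmp11, Mmp14 and Mmp19 and the inhibitors Timp1, Timp2, Timp3 and Timp4. They are 10 of 55291 genes in the deposited table, and all 10 had counts in every library and were among the 19971 genes kept by the filter on low counts. RNA came from shaved dorsal skin of 3 TSK mice, which carry a duplication inside Fbn1 (fibrillin 1), and 3 WT littermates, all of strain C57BL/6, with 1 library per mouse. The labels give an age of 6 to 8 weeks for both groups. The sex is female in the labels and male in the methods, and the Y-linked gene Ddx3y was at 56.7 to 72.8 CPM (counts scaled to the total of the library) over the 6 libraries. The mutation is present in every cell of the animal and, as kept by backcrossing, in 1 copy. Whole skin was used, so a library holds RNA of dermis, epidermis, fat and the muscle layer beneath.

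MMPs are zinc enzymes that cut proteins of the extracellular matrix and of the cell surface. They are made as inactive precursors, and TIMPs block the active enzymes by binding to the catalytic zinc. In skin, dermal fibroblasts make most of the stromal members. Mmp14 sits in the plasma membrane, where it activates the Mmp2 precursor with the help of Timp2, so that these 3 proteins act as one activation system. Mmp2 and Mmp9 are the gelatinases, Mmp3 is a stromelysin, Mmp11 is known as a stromal product of tumours and is activated inside the cell by furin, and Mmp19 is found in several cell types of skin. Timp3 differs from the other inhibitors in that it binds to the matrix and also blocks ADAM and ADAMTS proteinases.

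Library totals ranged from 17561453 to 19219814 counts and did not separate the groups. Fbn1, examined as a check of the labels, was higher in every TSK library (1943 ± 377 CPM, SD, n = 3) than in WT (272 ± 14.2 CPM). Adult skeletal muscle markers (16 of 16 with a count in every library) summed to 172974 to 251240 CPM in WT and 148520 to 170751 CPM in TSK. Of these 16 genes, 0 passed an adjusted p of 0.05 in edgeR, where 3.39% of all genes did. A positive fold change was found for 2, Myh1 and Myh2, and Myh2 was at 551 ± 147 CPM in WT and 1642 ± 417 CPM in TSK. The sum of 13 fibroblast markers was 7011 to 10289 CPM in WT and 21292 to 48502 CPM in TSK, with TSK 3 the highest. Most of this sum was collagen RNA. Col1a1, Col1a2 and Col3a1 had means of 3025, 1736 and 3207 CPM in WT and 13347, 6321 and 9436 CPM in TSK. The median log2 fold change of the 13 genes was 0.92, and Postn changed little (263 to 294 CPM). Over these 13 genes, 2 passed an adjusted p of 0.05 as higher, where 2.71% of all genes did, and 12 had a positive fold change. By deposited CPM, where 29.1% of genes were higher in every TSK library, so were the summed markers of adipocytes (11 genes, 3 passed as higher), macrophages (11 genes, 0 passed), endothelial cells (8 genes, 2 passed, 158 to 184 CPM in WT and 279 to 460.4 CPM in TSK), Schwann cells (6 genes, 1 passed, 152 to 279 and 285 to 509 CPM) and differentiated keratinocytes (7 genes, 1 passed, 1325 to 2135 and 2136 to 3675 CPM). After TMM scaling the groups overlapped for Schwann cells and differentiated keratinocytes and not for the others of these. Hair follicle markers overlapped in sum (62.9 to 143 and 107 to 129 CPM), and 3 of 8 tested genes passed as higher. The sums overlapped for basal keratinocytes (4103 to 7942 and 3990 to 6322 CPM, 0 of 7 passed). Of 8 smooth muscle and pericyte genes, Des, which skeletal muscle also expresses, was at 1752 to 2137 CPM in WT and 1209 to 1365 CPM in TSK, and the other 7 summed to 233 to 298 and 394 to 574 CPM, with 1 gene passing as higher. In bulk RNA, fewer cells of a type and less RNA per cell cannot be told apart, and the part of tissue makeup in the values below was not tested.

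Of the 10 genes, 3 rose in TSK skin at an adjusted p below 0.05 and 0 fell. The 3 were Mmp11, which had 6.59 times its WT mean, Mmp14, which had 2.88 times, and Timp2, which had 2.95 times. Of all genes tested 3.39% passed, 2.71% as higher and 0.681% as lower. Fold changes are TSK minus WT on the log2 scale, from edgeR's quasi-likelihood test with TMM scaling and Benjamini-Hochberg adjustment over all 19971 genes. The median log2 fold change was 0.72 over the 10 genes and -0.03 over all genes tested. At an unadjusted p below 0.05, 5 genes were higher, with Mmp2 and Timp3 as the further 2, and 0 were lower. Of all genes tested 20% had such a p, 12.1% as higher and 7.9% as lower. Both of these passed with DESeq2, the tool of the study, with adjusted p of 0.00288 for Mmp2 and 0.00483 for Timp3, where the background was 5.2% of genes higher. DESeq2 called 0 of the 10 lower, against 1.87% of genes. At the thresholds of the study (adjusted p below 0.01 and a fold above 2.5), 0 of the 10 passed with edgeR, against 0.255% of all genes higher and 0.0351% lower, and 1 (Mmp11) passed with DESeq2, against 1.42% of its genes higher. By deposited CPM, 6 of the 10 were higher in every TSK library than in every WT library, where 29.1% of genes were so and 2.58% were lower in this way. After TMM scaling 5 of the 10 were, where 14.1% of genes were higher and 10.6% lower.

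**Figure D1:**
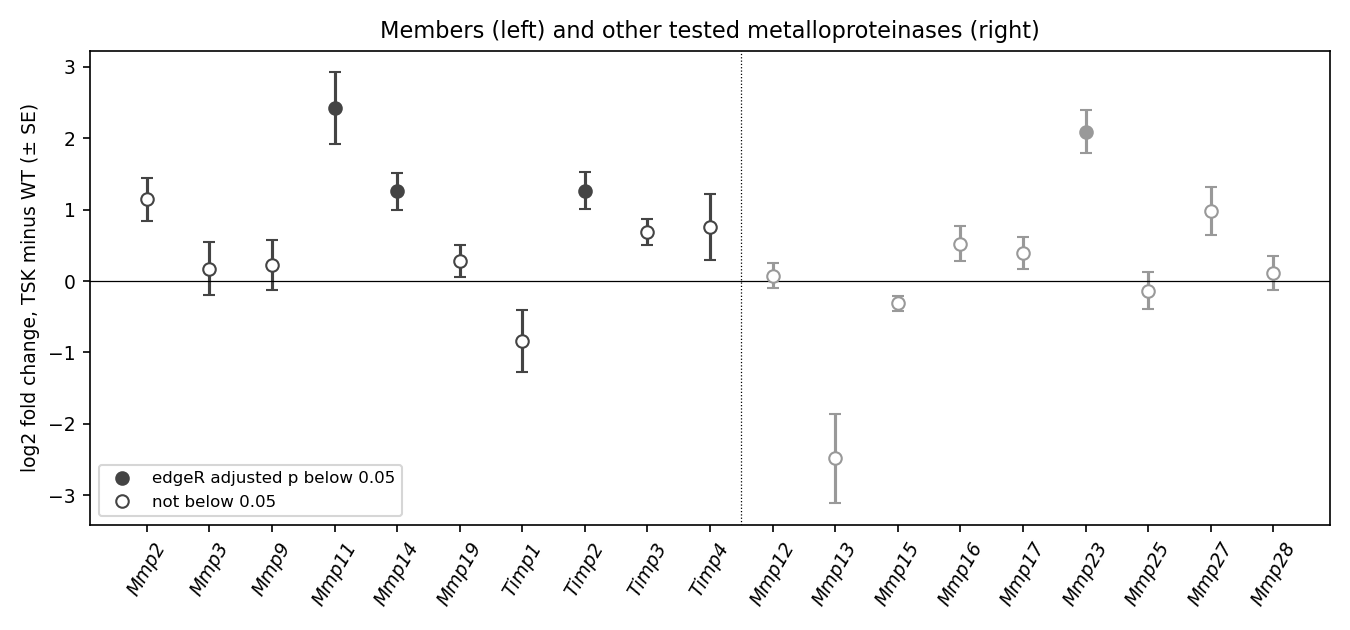
Log2 fold change (TSK minus WT, vertical axis) with its standard error for the 10 genes, left of the dotted line, and for 9 other metalloproteinases that could be tested, right of it. Filled points passed an edgeR adjusted p of 0.05: Mmp11, Mmp14 and Timp2 among the 10, and Mmp23 among the others.

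Among the proteinases, Mmp14, the membrane enzyme of the activation system, was at 48.9, 29.0 and 54.1 CPM in WT 1 to 3 and at 117, 93.3 and 170 CPM in TSK 1 to 3. Every TSK library was thus above every WT library. It rose by 1.26 on the log2 scale (SE 0.26, adjusted p in edgeR 0.0369). Mmp2, the secreted gelatinase that Mmp14 activates, was at 46.0, 65.6 and 67.5 CPM in WT and at 123, 127 and 242 CPM in TSK. The groups did not overlap, and TSK 3 stood well above the other TSK mice. Its change of 1.15 on the log2 scale (SE 0.30) did not pass (adjusted p in edgeR 0.0794).

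Mmp11 (stromelysin 3) showed the greatest change of the 10. It was at 4.44, 4.42 and 13.9 CPM in WT and at 47.3, 29.3 and 73.6 CPM in TSK. The WT mean of 7.59 ± 5.47 CPM rests largely on WT 3, and the TSK mean was 50.1 ± 22.3 CPM (SD, n = 3). It rose by 2.42 on the log2 scale (SE 0.50, adjusted p in edgeR 0.0387), and by 3.24 without WT 3. Mmp11 lies on the minus strand of chromosome 10 (75923222 to 75936496 in mm10) and shares 155 exonic bases with Chchd10 on the opposite strand. Chchd10 was at 144 ± 36.9 CPM in WT and 138 ± 29.6 CPM in TSK (edgeR adjusted p = 0.512). Whether the counting used strand is not given in the sources used here, so reads from the shared bases cannot be assigned.

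The 3 remaining proteinases did not pass. Mmp3 (stromelysin 1) was at 10.3, 4.29 and 6.97 CPM in WT and at 7.48, 5.83 and 15.7 CPM in TSK. Its groups overlapped, with only TSK 3 above the highest WT library. The difference was 0.18 on the log2 scale (SE 0.37, adjusted p in edgeR 0.841), and was -0.34 without TSK 3 and -0.032 without WT 2. A stretch of 284 bases of Mmp3 matches the transcript of Gm15242 at 95.4% identity. Mmp9 (gelatinase B), a product of neutrophils and macrophages among others, was at 3.36, 3.89 and 8.25 CPM in WT and at 7.26, 6.29 and 8.75 CPM in TSK. WT 3 lay among the TSK libraries. The difference was 0.23 on the log2 scale (SE 0.35, adjusted p in edgeR 0.769), and was -0.034 without WT 1. Neutrophil markers were near the limit of detection, with 9 of 11 below 1 CPM in every library and the whole list at 6.88 to 12.1 CPM in WT and 5.57 to 9.08 CPM in TSK. After TMM scaling that sum was lower in every TSK library (5.24 to 8.04) than in WT (8.36 to 11.8). The 11 macrophage markers summed to 242 to 385 CPM in WT and 447 to 1248 CPM in TSK, with 0 of them past an adjusted p of 0.05 in edgeR and 10 with a positive fold change. Mmp19 was at 8.81, 12.01 and 13.9 CPM in WT and at 14.4, 17.4 and 20.3 CPM in TSK. By deposited CPM every TSK library was higher, but after TMM scaling the groups overlapped. Mmp19 differed by 0.28 on the log2 scale (SE 0.23, adjusted p in edgeR 0.549). Its exons share 789 bases with Tmem198b on the opposite strand, which was at 6.63 ± 0.408 CPM in WT and 11.6 ± 2.68 CPM in TSK. Mmp19 also lies within Gm47093, an antisense gene that shares 212 of its exonic bases and was at 0.762 ± 0.142 CPM in WT and 0.655 ± 0.0359 CPM in TSK.

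**Figure D2:**
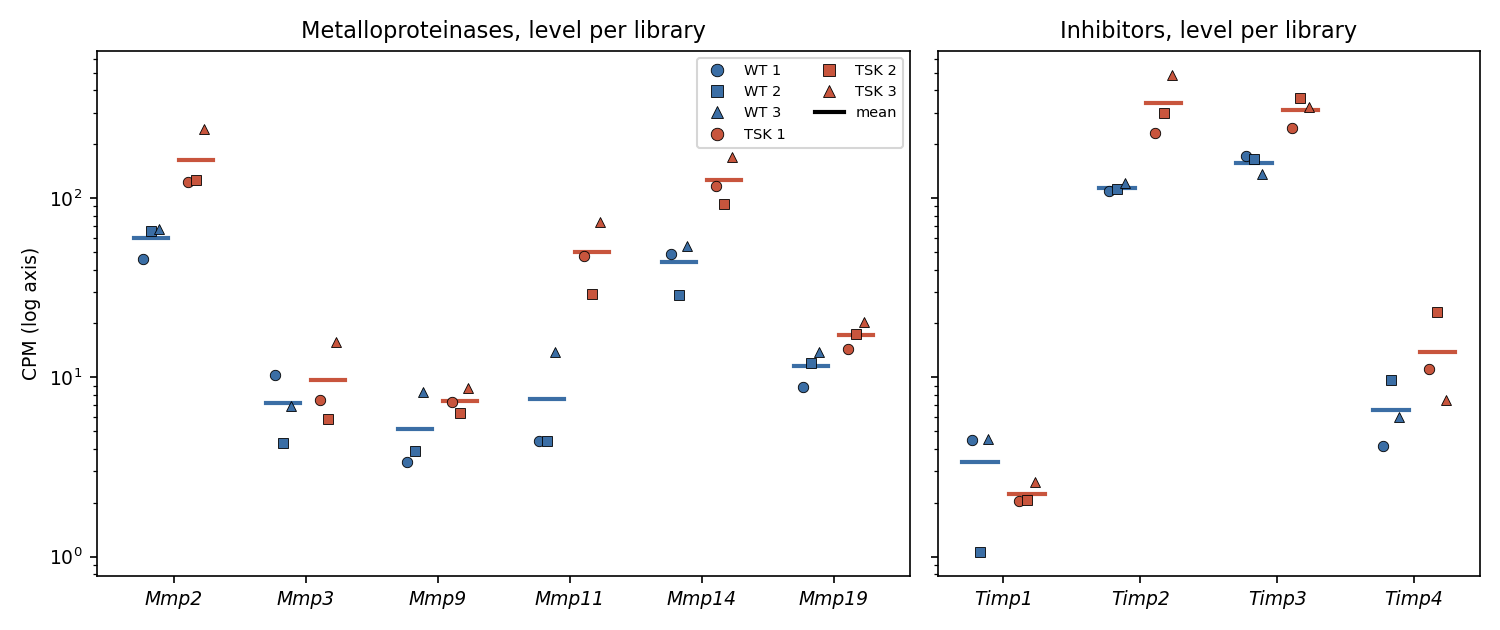
Deposited CPM (log axis) of the 10 genes in each library, with WT in blue, TSK in red, 1 symbol per mouse and a bar at the group mean. Mmp2, Mmp11, Mmp14, Mmp19, Timp2 and Timp3 did not overlap between groups, whereas Timp1 was the 1 gene with a lower mean in TSK.

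Among the inhibitors, Timp2, the partner of Mmp14 and Mmp2, was at 110, 113 and 121 CPM in WT and at 230, 298 and 489 CPM in TSK. WT mice were close together and TSK mice were spread, with TSK 3 the highest. Timp2 rose by 1.27 on the log2 scale (SE 0.26, adjusted p in edgeR 0.0369). Timp3, the matrix-bound inhibitor, was at 172, 166 and 137 CPM in WT and at 245, 364 and 323 CPM in TSK. Every TSK library was above every WT library, although the change of 0.69 on the log2 scale (SE 0.18) did not pass (adjusted p in edgeR 0.0757). The highest library was TSK 2 for Timp3 and TSK 3 for Timp2.

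Timp1 and Timp4 were low. Timp1, which is induced in many injured tissues, was at 4.50, 1.06 and 4.56 CPM in WT and at 2.03, 2.08 and 2.60 CPM in TSK. This rests on 20 to 83 counts per library. WT 2 was below every TSK library and the other WT mice were above, so the groups overlapped. The difference was -0.83 on the log2 scale (SE 0.44, adjusted p in edgeR 0.331), and it was negative under each of 13 alternatives (-1.22 to -0.30, adjusted p 0.0567 to 0.711). Timp4, known from heart and adipose tissue, was at 4.17, 9.63 and 5.99 CPM in WT and at 11.2, 23.1 and 7.46 CPM in TSK. TSK 2, with the highest Timp4, also had the highest sum of 11 adipocyte markers (4120 CPM, against 986 and 1224 CPM in the other TSK mice and 589 to 713 CPM in WT), and the part of fat in this value was not tested. Timp4 differed by 0.76 on the log2 scale (SE 0.47, adjusted p in edgeR 0.412), and by 0.20 without TSK 2.

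Of the inhibitors, 3 share an arrangement in the genome that the choice of genes did not use: Timp1, Timp3 and Timp4 each lie within a synapsin gene, on the opposite strand. Timp1 is on chromosome X at 20870166 to 20874735 within Syn1, with 0 shared exonic bases. Timp3 is on chromosome 10 at 86300372 to 86349506 within Syn3, with 1733 shared exonic bases, and Timp4 on chromosome 6 at 115241892 to 115252205 within Syn2, with 90. Timp4 lies also within Gm17482, which had 0 counts in every library. The host genes are expressed in neurons and were low here. Syn3 was at 1.15 ± 0.343 CPM in WT and 1.04 ± 0.227 CPM in TSK, far below Timp3. Syn1 was at 0.469 ± 0.489 and 1.30 ± 0.574 CPM, and Syn2 at 1.36 ± 0.256 and 2.35 ± 1.17 CPM. Of these 3 host genes, 0 passed 0.05 with edgeR, DESeq2 or limma, and 0 had an unadjusted edgeR p below 0.05, where 20% of all genes did. Timp2 (chromosome 11, 118301069 to 118355740) holds Cep295nl within it on the same strand, with 0 shared exonic bases. Cep295nl was at 3.99 ± 0.619 CPM in WT and 11.9 ± 5.34 CPM in TSK (1.28 in log2, edgeR adjusted p = 0.0675). Mmp2 (chromosome 8, 92827291 to 92853420), Mmp9 (chromosome 2, 164940780 to 164955850), Mmp14 (chromosome 14, 54431612 to 54445364) and Mmp3 (chromosome 9, 7445822 to 7455975) overlap no other annotated gene. Stretches of up to 133 bases of Mmp14 match transcripts of 255 other genes at 95% identity or more, and matches of at least 50 bases were also found for Timp3 with 510 genes, Syn3 included, and for Timp4 with 129. How the authors' counting split reads from such stretches is not given in the sources used here.

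The 250 bases before the RefSeq transcription start (GRCm38.p6) are shown for Mmp11 and Mmp14, which passed, and beside them for Mmp3 and Timp1, which did not. RefSeq windows were matched for 7 of the 10 genes, and these 4 windows hold no annotated exon. The RefSeq start of Mmp14 was not matched to a GENCODE transcript. The Mmp11 window lies inside the span of the gene given above, so it is not upstream of the whole counted gene. Capitals mark the motifs searched on both strands: the AP-1 element, searched as TGANTCA, the TATA box, searched as TATAAA, and the GC box, searched as GGGCGG and in Timp1 found on the other strand, where its complement is in capitals.
Mmp3 (chr9:7445572-7445821, plus strand): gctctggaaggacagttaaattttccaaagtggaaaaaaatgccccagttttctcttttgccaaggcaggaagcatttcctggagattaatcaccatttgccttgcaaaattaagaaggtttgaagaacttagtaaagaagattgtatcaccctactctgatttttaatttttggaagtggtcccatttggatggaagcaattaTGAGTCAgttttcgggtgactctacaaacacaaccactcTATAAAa
Timp1 (chrX:20869916-20870165, plus strand): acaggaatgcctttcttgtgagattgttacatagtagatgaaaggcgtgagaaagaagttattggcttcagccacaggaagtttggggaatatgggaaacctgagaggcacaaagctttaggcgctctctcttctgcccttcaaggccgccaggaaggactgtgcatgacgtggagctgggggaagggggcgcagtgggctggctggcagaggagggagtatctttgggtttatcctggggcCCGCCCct
Mmp11 (chr10:75932503-75932752, minus strand): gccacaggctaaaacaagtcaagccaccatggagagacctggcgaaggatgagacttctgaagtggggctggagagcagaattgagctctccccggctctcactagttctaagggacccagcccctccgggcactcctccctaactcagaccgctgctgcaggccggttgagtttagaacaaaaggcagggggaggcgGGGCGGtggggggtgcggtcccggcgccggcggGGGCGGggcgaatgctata
Mmp14 (chr14:54431348-54431597, plus strand): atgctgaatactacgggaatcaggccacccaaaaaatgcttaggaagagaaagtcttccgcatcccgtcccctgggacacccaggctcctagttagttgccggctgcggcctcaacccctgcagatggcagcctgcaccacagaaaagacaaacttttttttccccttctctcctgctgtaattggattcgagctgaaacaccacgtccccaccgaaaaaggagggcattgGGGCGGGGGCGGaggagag
The Mmp3 window holds an AP-1 element from -46 to -40 and a TATA box from -7 to -2, counted from the transcription start. These occur in 6.75% and 12.4% of 32851 RefSeq windows of the same length. The Mmp11 and Mmp14 windows hold 2 GC boxes each, and the Timp1 window 1, where 32.7% of all windows hold at least 1. Mmp3 holds no GC box, and its GC content is 37.6%, against 63.2% for Mmp11, 55.2% for Mmp14 and 54.4% for Timp1. Of the 7 windows, that of Mmp3 held the 1 AP-1 element found, those of Timp2 and Timp3 held 1 GC box each and that of Timp4 held none of the 3 motifs. These are descriptions of letters, and no binding was measured.

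Levels of different genes were compared per kb of exon, as CPM divided by the length of the merged exons. In WT skin Timp2 was highest at 29.4 ± 1.55 CPM per kb. Timp3 (19.4 ± 2.29) and Mmp2 (17.7 ± 3.53) followed and differed by less than their spread. Mmp14 was at 7.38 ± 2.22 CPM per kb. Mmp3 (3.99 ± 1.67), Timp1 (3.80 ± 2.25), Mmp19 (3.28 ± 0.729) and Mmp11 (2.73 ± 1.97) could not be ordered, nor could Mmp9 (1.46 ± 0.758) and Timp4 (1.12 ± 0.472). In TSK skin Timp2 was again first (87.0 ± 34.5 CPM per kb). Mmp2 (48.7 ± 20.1) and Timp3 (38.1 ± 7.36) were next and overlapped each other. Mmp11 was at 18.0 ± 8.02 CPM per kb, beside Mmp14 at 21.3 ± 6.61, so that it was 5th of 10 in mean level in TSK and 8th in WT.

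**Figure D3:**
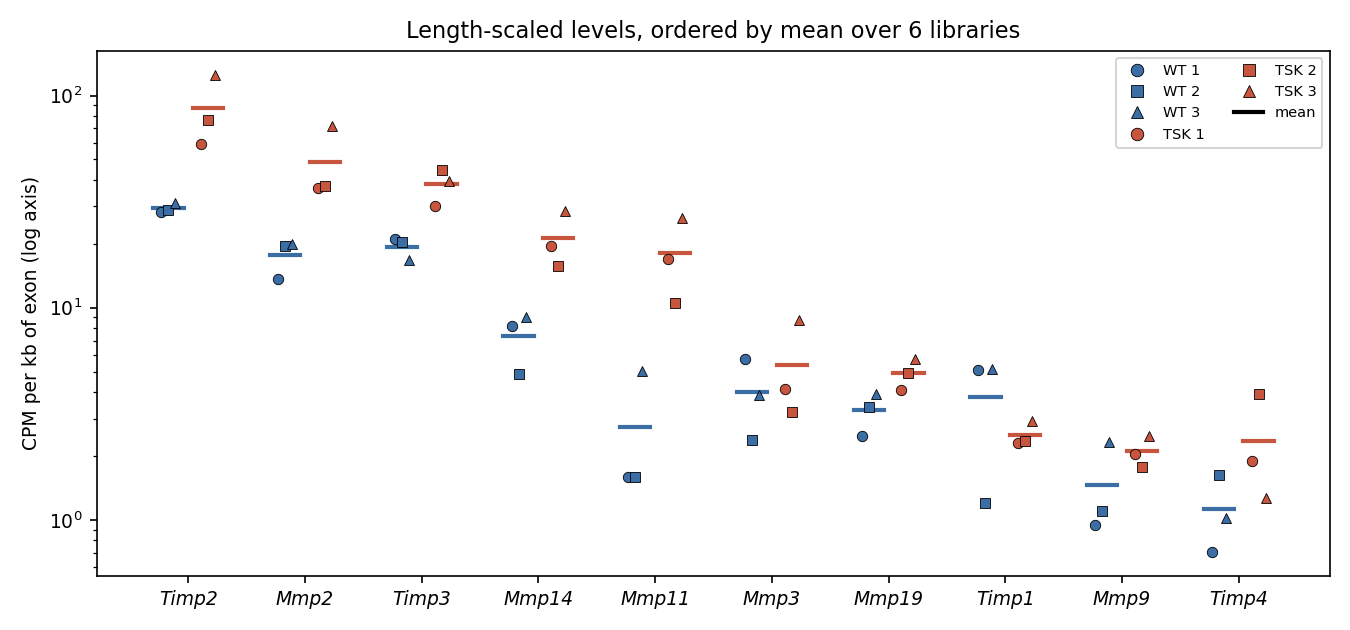
CPM per kb of exon (log axis) of the 10 genes in each library, ordered by the mean over the 6 libraries, with a bar at each group mean. Timp2, Mmp2, Timp3 and Mmp14 had the 4 highest WT means, and Mmp11 moved from 2.73 CPM per kb in WT to 18.0 CPM per kb in TSK.

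Shares within each family show the same values without scaling between libraries. Of the summed length-scaled level of the 6 proteinases, Mmp2 took 48.8% ± 9.27 in WT and 48.2% ± 3.93 in TSK, and Mmp14 took 20.2% ± 5.17 and 21.5% ± 1.84. Mmp11 took 7.02% ± 3.72 in WT and 17.7% ± 3.13 in TSK, with every TSK library (14.3% or more) above every WT library (11.3% or less). Relative to the summed level of the 6, which holds Mmp11 itself, 0.626% of all genes were higher in this way. In the other direction, Mmp3 took 11.2% ± 5.54 and 5.15% ± 0.856, Mmp9 took 3.84% ± 1.25 and 2.20% ± 0.416, and Mmp19 took 8.97% ± 1.36 and 5.18% ± 1.37. For each of these 3, every TSK library was below every WT library, as was so for 72.8% of all genes relative to the same sum. Of the summed level of the 4 inhibitors, Timp2 took 54.8% ± 3.28 in WT and 65.8% ± 7.39 in TSK, Timp3 took 36.1% ± 4.41 and 30.3% ± 6.09, and Timp1 took 7.001% ± 4.07 and 2.01% ± 0.393. The groups overlapped for Timp3 and for Timp1, where WT 2 (2.30%) was below TSK 1 (2.46%). As shares of a whole, these values are not independent of each other.

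To compare enzyme with inhibitor, ratios of counts were taken within each library. They are given as descriptions and were not tested. An exact permutation test of 3 mice against 3 cannot give a p below 0.1. The log2 ratio of Mmp2 to Timp2 was -0.96 ± 0.25 in WT and -1.05 ± 0.17 in TSK, and that of Mmp14 to Timp2 was -1.43 ± 0.46 and -1.39 ± 0.37. Both differences, -0.087 and 0.040, were smaller than the spread between mice. The summed proteinases over the summed inhibitors, per length, gave -0.57 ± 0.25 in WT and -0.39 ± 0.34 in TSK, and the groups overlapped. The log2 ratio of Mmp9 to Timp1 was 0.77 ± 1.15 in WT and 1.73 ± 0.12 in TSK, and that of Mmp3 to Timp1 was 1.27 ± 0.70 and 1.99 ± 0.57, each with overlap. Timp3 over Timp2 was 0.46 ± 0.25 in WT and -0.072 ± 0.47 in TSK, with TSK 2 above WT 3. Timp1 over Timp2 was -4.61, -6.73 and -4.73 in WT and -6.82, -7.16 and -7.56 in TSK. All TSK values were lower, but 79.4% of all genes were lower relative to Timp2 in the same way.

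Because fibroblast markers were higher in TSK, each of the 10 genes was also set against them within its library, as log2 CPM minus the mean log2 CPM of the 13 markers. That mean was 6.88 ± 0.37 in WT and 7.80 ± 0.39 in TSK, a difference of 0.92. Relative to it, Mmp2 differed by 0.20, Mmp14 by 0.33 and Timp2 by 0.29 between TSK and WT, and their groups overlapped. Timp3 differed by -0.24, with overlap. Mmp11 was at -4.30, -4.65 and -3.09 in WT and at -2.01, -2.95 and -2.21 in TSK, a difference of 1.62. Every TSK library was above every WT library, although TSK 2 was only slightly above WT 3, and 0.871% of all genes tested were higher in this sense. Without any 1 library the difference for Mmp11 was 1.31 to 2.09. Mmp19 was lower relative to the markers in every TSK library (-3.71, -3.70 and -4.06, against -3.32, -3.22 and -3.09 in WT), which was so in 67.2% of genes. Timp1 was at -4.28, -6.62 and -4.68 in WT and at -6.47, -6.69 and -6.97 in TSK, where WT 2 lay below TSK 1.

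**Figure D4:**
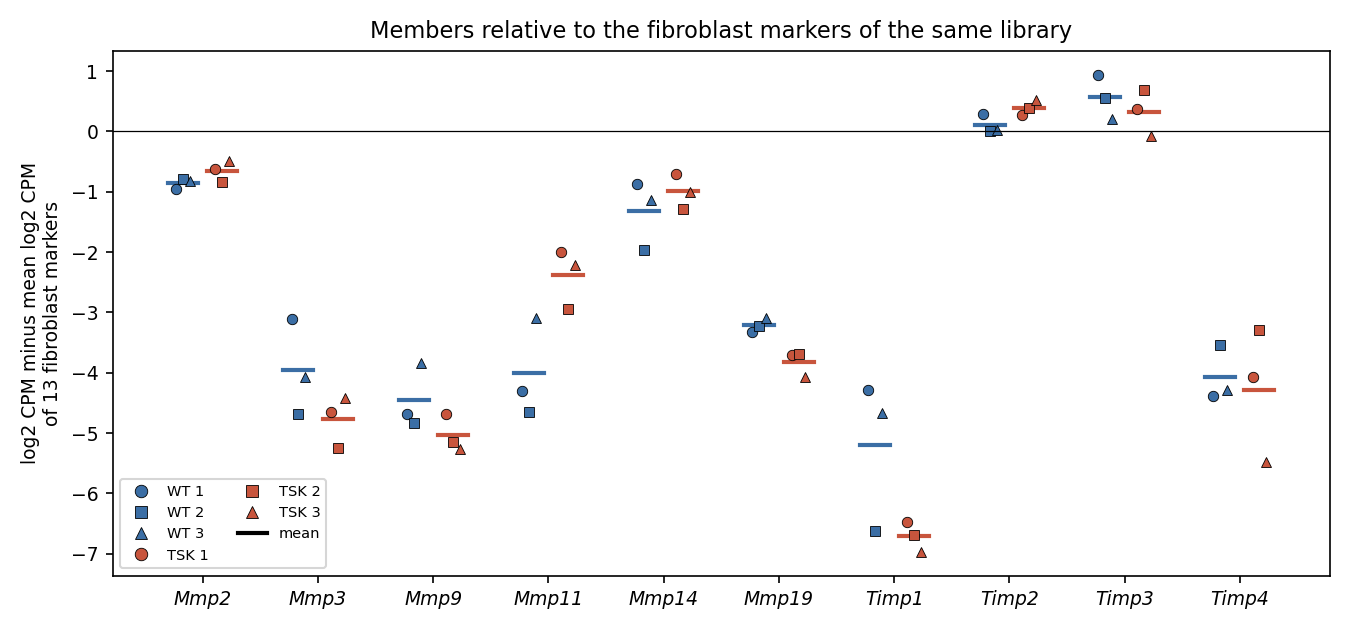
Log2 CPM of each of the 10 genes minus the mean log2 CPM of 13 fibroblast markers in the same library (vertical axis), with a bar at each group mean. Mmp11 was higher in TSK by 1.62 and its groups did not overlap, whereas Mmp2, Mmp14 and Timp2 overlapped.

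The 3 calls were each lost in most fits that left out 1 library. The weight of a particular mouse and the loss of any 1 mouse cannot be told apart here. Without 1 library, the adjusted p of Mmp11 was 0.0527 without WT 1, 0.109 without WT 2, 0.0696 without TSK 1 and 0.0966 without TSK 3, and it passed without WT 3 (0.0411) or TSK 2 (0.0369). Mmp14 passed without TSK 2 (0.0319) and had 0.053 without WT 1, 0.0982 without WT 2, 0.0839 without WT 3, 0.069 without TSK 1 and 0.0848 without TSK 3. Timp2 passed without TSK 1 (0.0273) and had 0.053 without WT 1, 0.09 without WT 2, 0.131 without WT 3, 0.0601 without TSK 2 and 0.056 without TSK 3. The log2 fold changes stayed at 2.07 to 3.24 for Mmp11, 1.01 to 1.48 for Mmp14 and 0.93 to 1.46 for Timp2 over these 6 fits, each of which had 1 mouse fewer.

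**Figure D5:**
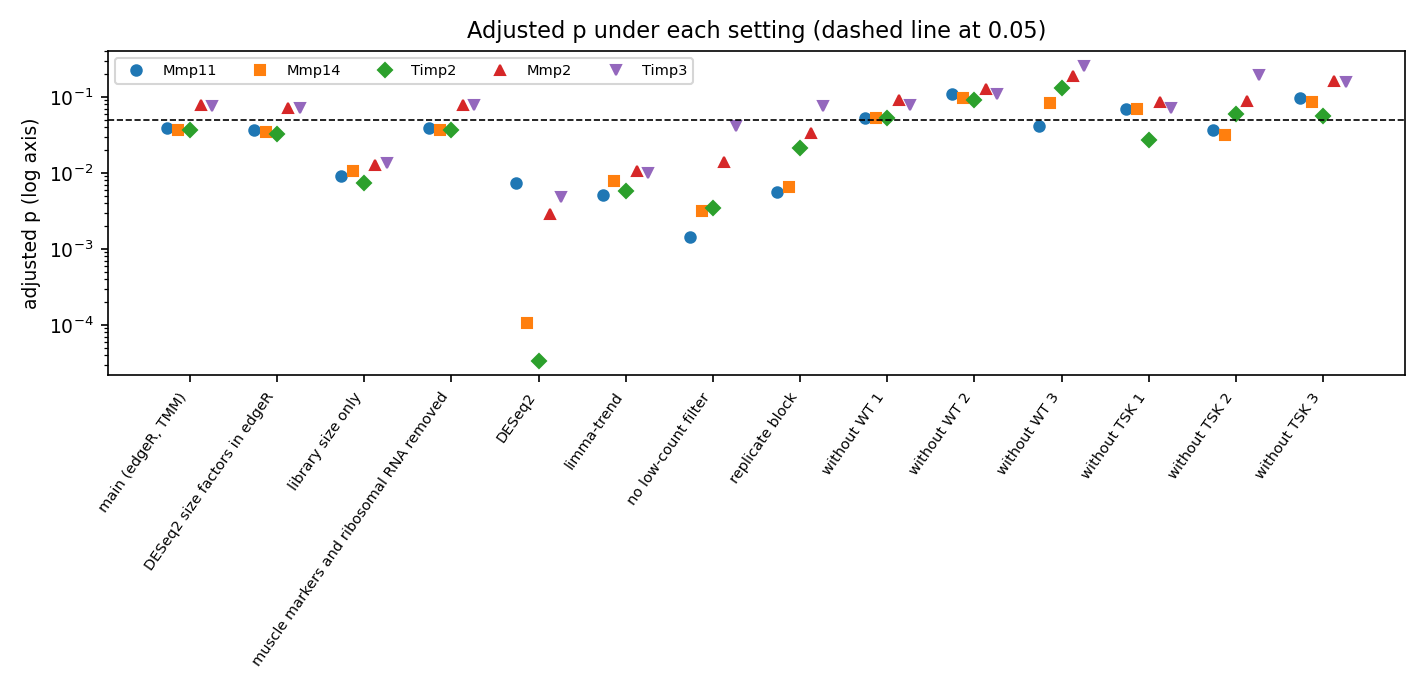
Adjusted p (log axis) of Mmp11, Mmp14, Timp2, Mmp2 and Timp3 in the main test and under 13 alternatives, with a dashed line at 0.05. All 5 genes were below the line with DESeq2, library size only, limma-trend and no low-count filter, and most were above it when 1 library was left out.

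Other genes of matrix turnover were read from lists, to be set beside the 2.71% of all genes that rose, the 0.681% that fell and the median of -0.03 over all genes. Of 17 other metalloproteinases, 9 could be tested, with a median log2 fold change of 0.11, and 1 rose and 0 fell in edgeR. That 1 was Mmp23, a membrane-anchored enzyme, from 2.39 ± 0.428 to 12.4 ± 5.46 CPM (2.10 on the log2 scale, SE 0.31, adjusted p in edgeR 0.0148). Mmp13, a collagenase, was chosen after its values were seen: it was at 0.797, 2.29 and 1.81 CPM in WT and at 0.605, 0.104 and 0.371 CPM in TSK. Its groups did not overlap, and its difference of -2.49 on the log2 scale (SE 0.63) did not pass (adjusted p in edgeR 0.0698). Of 17 tested genes that activate or control MMPs, 2 rose and 0 fell in edgeR, with a median of 0.44. Plat, the tissue plasminogen activator, was at 7.06 ± 0.283 CPM in WT and 25.6 ± 5.18 CPM in TSK (1.57 in log2, SE 0.17, edgeR adjusted p = 0.00711). Reck, a membrane-anchored inhibitor of MMPs, was at 6.16 ± 1.14 and 21.4 ± 7.33 CPM (1.49 in log2, SE 0.28, edgeR adjusted p = 0.0291).

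Among 9 genes of collagen uptake, lysosomal breakdown and cell surface peptidases, 3 rose, with a median log2 fold change of 0.79 over the list. They were Dpp4, a serine peptidase of the cell surface (6.82 ± 0.436 to 42.8 ± 11.6 CPM, edgeR adjusted p = 0.00327), Ctsk, the collagen-cutting cathepsin K (9.73 ± 2.56 to 35.4 ± 16.4 CPM, 0.036), and Lrp1, the endocytic receptor that clears MMPs and TIMPs (378 ± 14.5 to 911 ± 256 CPM, 0.0475). Among 12 ADAM and ADAMTS genes, several of whose proteins are blocked by Timp3, 3 rose, with a median of 0.39. They were the aggrecanase Adamts5 (16.8 ± 0.291 to 67.4 ± 13.9 CPM, edgeR adjusted p = 0.00519), Adam33 (6.94 ± 0.854 to 35.1 ± 17.7 CPM, 0.0187) and Adam15 (38.6 ± 2.33 to 82.0 ± 17.8 CPM, 0.034). Of 7 AP-1 genes, whose proteins bind TGANTCA elements, 1 fell, where 0.681% of all genes did. Fosl1 was at 1.77, 1.76 and 5.28 CPM in WT and at 0.605, 0.468 and 0.742 CPM in TSK (-2.56 in log2, SE 0.53, edgeR adjusted p = 0.0381). The median of the list was -0.36. When each of the 6 libraries was left out in turn, Plat, Dpp4 and Adamts5 passed in all 6 fits, Mmp23 and Adam33 in 5, Reck in 4, Ctsk and Adam15 in 2, and Lrp1 and Fosl1 in 1.

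In the main edgeR test Mmp14 had the lowest unadjusted p of the 10 genes (0.001006), just before Timp2 (0.001008). With DESeq2 Timp2 had a lower unadjusted p than Mmp14 (4.13e-07 and 1.61e-06). Among 12016 genes with a mean of at least 5 CPM, the 3 with the most similar pattern over the 6 libraries, by root mean square difference of centred log2 CPM, were Gm12840 (0.161), Twist1 (0.198) and Dok2 (0.213). Twist1, a transcription factor of mesenchyme, was at 2.45 ± 0.653 CPM in WT and 9.29 ± 3.44 CPM in TSK, and Dok2, an adaptor protein of blood cells, at 4.96 ± 1.41 and 11.6 ± 4.03 CPM.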

How the data were processed

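RNA was depleted of ribosomal RNA and sequenced as stranded, single-end libraries of 50-base reads. Per the labels and the methods, the authors used bcl2fastq 2.19.1.403, STAR with mm10, and Partek Flow 11.0. The authors deposited estimated counts per gene, of which 43.3% to 45.4% of non-zero values were whole (within 0.001), and CPM values scaled per library.

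Groups came from the sample titles. Estimated counts were rounded and tested with edgeR 4.0.16 (R 4.3.3, quasi-likelihood, TMM, filterByExpr), with DESeq2 1.42.0 and limma 3.58.1 (log2 of CPM plus 1) as alternatives. Tests were planned for counts, and rounding was added because many values were not whole. The thresholds were adjusted p 0.05 and, after the study, adjusted p 0.01 with fold 2.5. Relative levels used log2 values after TMM scaling (prior count 2). Means carry the SD over 3 mice. Scripts were tested on simulated data.

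The genes and lists were chosen with earlier results of these data known. All 10 genes were named. From each related list up to 3 genes passing per direction, or up to 2 with the lowest p where none passed, were named, as were genes overlapping the 10 and the 3 nearest patterns to the gene with the lowest p. Gene positions in the table equal those of GENCODE M21 for all 10 genes. Promoter sequences are from RefSeq (GRCm38.p6). Transcripts were compared with BLAST 2.17.0 (at least 50 bases, 95% identity). The single-cell data of the study were not analysed here.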

Additional observations from a re-analysis of the deposited data

How the results depend on the processing

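The number of the 10 genes that were higher, 3 with edgeR and TMM, was 5 with DESeq2, with library size only, with limma-trend on log2(CPM + 1) and with no low-count filter, and 0 to 2 when 1 library was left out (0 without WT 1, WT 2 or TSK 3, 1 without WT 3 or TSK 1). The number lower was 0 throughout. The number past both thresholds of the study, 0, was 2 with library size only, 1 with DESeq2, 3 with limma-trend, 1 with no filter, 1 with the replicate block and 0 without any 1 library.

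Over all genes, 542 were higher and 136 lower. Library size only gave 1685 higher (93 lower), DESeq2 1129 and 406, limma-trend 1771 (100 lower), and no filter 1040 and 347. Past both thresholds of the study were 58 genes, which became 305, 377, 283 and 356 under these alternatives and 99 with the replicate block. Without 1 library these counts ran from 45 to 713, 15 to 547 and 1 to 46. The median over all genes tested, -0.03, was 0.25 with library size only and 0.20 with limma-trend. Related list genes passing, 10, were 21 with library size only, 19 with DESeq2, 21 with limma-trend, 19 with no filter and 3 to 11 without 1 library. The cause of these changes was not tested.

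Correlations by replicate number were 0.0112, 0.167 and -0.0938. With only 3 values they cannot decide whether the numbers pair the mice. With the replicate block 4 of the 10 genes were higher, Mmp2 being added (0.0331). DESeq2 size factors in edgeR and the removal of muscle markers and ribosomal RNA kept the same 3 genes. Of 130 values of the 10 genes under alternatives, 104 kept direction and side of 0.05, 9 newly passed, 14 no longer passed and 3 reversed, none of which passed 0.05: Mmp3 without WT 2 (-0.032) or TSK 3 (-0.34) and Mmp9 without WT 1 (-0.034). Over the fits without 1 library Mmp3 ran from -0.34 to 0.44 and Mmp9 from -0.034 to 0.77. Differences in the within-library log2 ratios changed little with an offset of 0.5 counts (Timp1 over Timp2 stayed at -1.82). Without 1 library they ran from -2.51 (without WT 2) to -1.45 (WT 1) for Timp1 over Timp2, 0.37 (WT 1) to 1.51 (WT 2) for Mmp9 over Timp1, 0.39 (WT 3) to 1.09 (WT 2) for Mmp3 over Timp1, -0.71 (TSK 2) to -0.27 (TSK 3) for Timp3 over Timp2, and 0.060 (TSK 1) to 0.37 (TSK 2) for the summed families. Those of Mmp14 over Timp2 (-0.23 to 0.18) and of Mmp2 over Timp2 (-0.23 to 0.0047) changed sign. The setting that sets the 10 genes against fibroblast markers without 1 library was added after seeing the data. Timp1 rested on 20 to 83 counts per library.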
